A study of Mus musculus with 2 samples.

Results

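The 36 genes described here form 2 families known for fast induction by a stimulus, 26 immediate early genes and 10 heat shock genes, although several chaperones among the latter are also made constitutively. They were taken from a list of symbols, all 36 of which matched 1 gene each among the 32285 genes of the count tables. No measured value of these libraries enters that rule, but the list was drawn up with earlier results of these data known. The immediate early genes were split by role into 8 AP-1 genes and relatives (Fos, Fosb, Fosl2, Jun, Junb, Jund, Atf3, Maff), 2 Egr genes (Egr1, Egr3), 10 feedback and other early genes (Ier2, Ier3, Ier5, Dusp1, Dusp2, Zfp36, Btg2, Nfkbia, Gadd45b, Myc), 3 Nr4a genes (Nr4a1, Nr4a2, Nr4a3) and 3 Klf genes (Klf2, Klf4, Klf6). The libraries came from collagenase-digested lung; the C57BL/6 mice bear the SP-CI73T mutation of surfactant protein C, a protein of alveolar type 2 cells. In this line 1 gavage of tamoxifen at 175 mg/kg cuts out a neomycin cassette and increases the mutant protein, so both groups carry the mutant allele. The injured group stood for lung 14 days after injury and the control group for steady state, with 1 library each; the animals pooled in a library and their age were not given in the sources used here. The titles named the groups, and the treatment tags ran the other way, with tamoxifen on the library titled control, so every direction here is between the libraries as titled.

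Immediate early genes are transcribed from factors already present in the cell, chiefly SRF with its partners and CREB, and need no new protein. Fos and Jun proteins pair into AP-1, Egr and Nr4a proteins are further transcription factors, and Dusp1, Zfp36, Btg2 and Nfkbia encode brakes on kinase signalling, messenger RNA stability, growth and NF-κB. Heat shock genes are driven by HSF1 and encode chaperones with their helpers, among them the HSP70 proteins (Hspa1a, Hspa1b, Hspa8), the HSP90 proteins, the mitochondrial pair Hspd1 and Hspe1, and the J-domain helpers Dnaja1 and Dnajb1. Both families are also known to be switched on while tissue is taken apart. Here the lung was lavaged, perfused and digested with collagenase D for 30 min at 37 °C, strained through 70 µm and freed of red cells in both groups, so an induction in the animal and an induction during digestion cannot be told apart.

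Each library was read as counts of unique molecular identifiers (UMIs, 1 per captured transcript). After filtering, 2302 injured and 2298 control cells were kept, holding 19818013 and 16021880 UMIs, and the median cell had 3271 and 4499.5 UMIs. The cells fell into 25 clusters, drawn without the 36 genes, and the clusters into 18 classes named from marker genes; a class name such as neutrophil stands for neutrophil-like. Of these, 9 classes had at least 50 cells in both libraries and were compared. In the class called cDC2, 8 markers of that type were raised and 7 of cDC1, another dendritic cell type. Its leading genes included Xcr1, a cDC1 gene, and the mix of the 2 types in each library was not measured. The proliferating class was named from cell division genes, and its lineages were not resolved. Free RNA was present, since Scgb1a1, an airway secretory gene, had UMIs in 82.8% of injured and 99.7% of control B cells at median depths of 3381.5 and 4485 UMIs. Levels are given as CPM, the UMIs of a gene per 1000000 UMIs of the library or class, and a gene was called higher or lower where the levels differed at least 1.5-fold and both libraries together held at least 50 counts. With 1 library per group no test between groups was possible, so all 95% intervals cover counting error only, and fewer cells of a type cannot be told from less RNA per cell in a whole-library value.

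Promoter sequences were found in the RefSeq table (GRCm38.p6) for 29 of the 36 genes, 22 immediate early and 7 heat shock. The 250 bases before the start of transcription are shown for a few genes whose levels the results turn on, with and without the motifs searched; for Hsph1 and Hspd1 the table held 2 promoters, of which 1 is shown. In Fos (chr12:85473640-85473889, plus strand), Dusp1 (chr17:26508473-26508722, minus strand) and Nr4a1 (chr15:101266596-101266845, plus strand), capitals mark TGACG or its complement CGTCA, the core of the CREB site, and in Fos also TATAAA. Klf2 (chr8:72318812-72319061, plus strand) holds 1 TGACG. Hspd1 (chr1:55088244-55088493, minus strand) holds none of the motifs in the promoter shown and has no capitals. In Zfp36 (chr7:28379229-28379478, minus strand) capitals mark a CArG box, the site of SRF. In the immediate early gene Jun (chr4:95052223-95052472, minus strand), and in Hspa1a (chr17:34972157-34972406, minus strand) and Hspa1b (chr17:34959239-34959488, minus strand) capitals mark GAANNTTC, and in Hsph1 (chr5:149636337-149636586, minus strand) TTCNNGAA; both are pairs of the GAA unit that HSF1 binds, in opposite orientation.
Fos: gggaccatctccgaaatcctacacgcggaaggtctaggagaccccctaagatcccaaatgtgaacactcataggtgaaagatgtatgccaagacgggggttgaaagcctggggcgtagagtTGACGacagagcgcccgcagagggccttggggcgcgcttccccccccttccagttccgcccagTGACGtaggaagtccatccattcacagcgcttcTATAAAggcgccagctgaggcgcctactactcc
Dusp1: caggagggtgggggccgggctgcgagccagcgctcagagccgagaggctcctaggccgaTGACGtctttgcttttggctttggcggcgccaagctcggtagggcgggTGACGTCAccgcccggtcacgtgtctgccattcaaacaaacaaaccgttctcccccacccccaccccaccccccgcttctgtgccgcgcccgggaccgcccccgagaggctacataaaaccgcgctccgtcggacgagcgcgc
Nr4a1: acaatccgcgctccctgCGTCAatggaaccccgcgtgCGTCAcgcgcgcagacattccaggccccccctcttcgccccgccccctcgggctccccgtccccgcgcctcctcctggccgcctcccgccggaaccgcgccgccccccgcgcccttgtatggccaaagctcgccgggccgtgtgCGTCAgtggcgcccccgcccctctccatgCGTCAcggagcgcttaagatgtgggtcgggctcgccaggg
Klf2: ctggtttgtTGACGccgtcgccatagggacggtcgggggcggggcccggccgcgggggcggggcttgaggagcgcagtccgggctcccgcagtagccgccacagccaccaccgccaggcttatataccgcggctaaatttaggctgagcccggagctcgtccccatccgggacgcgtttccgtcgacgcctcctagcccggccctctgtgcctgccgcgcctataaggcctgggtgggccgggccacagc
Jun: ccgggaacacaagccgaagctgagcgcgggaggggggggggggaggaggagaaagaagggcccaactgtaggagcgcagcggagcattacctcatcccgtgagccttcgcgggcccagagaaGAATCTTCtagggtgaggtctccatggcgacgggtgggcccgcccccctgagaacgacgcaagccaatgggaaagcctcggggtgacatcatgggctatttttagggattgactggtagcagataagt
Zfp36: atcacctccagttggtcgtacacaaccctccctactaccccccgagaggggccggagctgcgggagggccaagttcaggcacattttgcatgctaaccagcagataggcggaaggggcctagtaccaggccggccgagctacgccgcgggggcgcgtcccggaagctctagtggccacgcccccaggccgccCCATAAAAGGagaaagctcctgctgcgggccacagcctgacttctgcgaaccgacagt
Hspa1a: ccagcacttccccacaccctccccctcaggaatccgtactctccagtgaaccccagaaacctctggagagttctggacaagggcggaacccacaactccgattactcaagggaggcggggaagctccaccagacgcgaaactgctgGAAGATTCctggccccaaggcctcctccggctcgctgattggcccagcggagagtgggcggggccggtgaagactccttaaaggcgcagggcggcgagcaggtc
Hspa1b: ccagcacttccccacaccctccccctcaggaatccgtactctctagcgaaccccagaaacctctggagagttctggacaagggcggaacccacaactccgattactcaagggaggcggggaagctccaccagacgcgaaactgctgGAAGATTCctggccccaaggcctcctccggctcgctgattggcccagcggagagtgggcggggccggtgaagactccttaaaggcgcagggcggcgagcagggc
Hsph1: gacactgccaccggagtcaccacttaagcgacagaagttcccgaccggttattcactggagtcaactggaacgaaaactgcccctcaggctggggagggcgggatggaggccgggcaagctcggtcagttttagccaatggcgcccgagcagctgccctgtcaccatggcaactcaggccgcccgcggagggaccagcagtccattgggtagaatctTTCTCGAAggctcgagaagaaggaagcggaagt
Hspd1: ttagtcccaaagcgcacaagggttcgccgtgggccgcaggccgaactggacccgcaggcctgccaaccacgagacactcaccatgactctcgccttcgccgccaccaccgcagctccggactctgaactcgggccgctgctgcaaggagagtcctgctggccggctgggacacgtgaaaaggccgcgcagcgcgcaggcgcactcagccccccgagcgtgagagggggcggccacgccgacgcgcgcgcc

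The capitals in Fos begin 129, 66 and 33 bases before the start, and the last of them is the TATAAA. Dusp1 holds TGACG 191 bases before the start and the full palindrome TGACGTCA, which contains TGACG on both strands, at 143. Nr4a1 holds CGTCA at 233, 213, 69 and 40 bases before the start and Klf2 TGACG at 241, the CArG box of Zfp36 lies at 58, and the TTCNNGAA of Hsph1 lies at 33. The windows of Hspa1a and Hspa1b matched at 247 of 250 positions (98.8%), and GAAGATTC lies 104 bases before the start in both; reads of such close copies may be assigned to either gene, so their separate counts are uncertain. The GAANNTTC of Jun lies 128 bases before the start. In the counts that follow a gene with several promoters, such as Hspd1, counts as holding a motif where any of them does. TGACG on either strand was in 12 of 22 immediate early and 3 of 7 heat shock windows, against 19.8% of the windows of 27025 genes. GAANNTTC was in 2 of 22 immediate early and 5 of 7 heat shock windows, against 7.73% of all genes, and TTCNNGAA in 0 of 22 and 3 of 7, against 8.11%. Hspe1 and Hspd1, both among the heat shock windows with TGACG, GAANNTTC and TTCNNGAA, overlap at their starts on opposite strands. Their windows may share sequence, so like Hspa1a and Hspa1b they may not be separate cases. TGACGTCA was in 3 of 22 immediate early windows (1.77% of all), TATAAA in 3 of 22 (14.3% of all), the CArG box in 1 of 22 (1.62% of all), and the AP-1 site TGANTCA in none of either family (7.82% of all). The window was shortened from 300 bases, which reach 50 into the transcript, after the longer counts had been seen; those were 13 of 22 and 4 of 7 for TGACG (23.0% of all), 6 of 7 heat shock windows for GAANNTTC (9.04% of all) and 5 of 22 for TATAAA (15.7% of all). These are matches of letters within a window and show neither binding nor use.

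Over all kept cells, most of the 36 genes stood at similar or lower levels in the injured library. In that comparison 2 genes were called higher, where 19.2% of 13050 genes were, and 13 lower, where 14.1% were. The median log2 ratio (injured over control, 10 CPM added to both) was -0.33 for the immediate early genes and -0.40 for the heat shock genes, beside 0.04 over all genes tested. Summed, the immediate early genes made up 7002 CPM of the injured and 8200 CPM of the control library, and the heat shock genes 3058 and 4102 CPM.

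Among the AP-1 genes, Junb was the most abundant with 1011 injured and 975 control CPM. Fos was lower in the injured library without reaching the 1.5-fold size, at 642 against 927 CPM (ratio 0.693, interval 0.677–0.710). Fosb (129 and 239 CPM), Jun (186 and 322 CPM) and Atf3 (69.0 and 138 CPM) were called lower. Of these 3 the stress factor Atf3 had the largest difference. Jund (653 and 839 CPM), Fosl2 (171 and 134 CPM) and Maff (26.5 and 36.8 CPM) lay within 1.5-fold. Of the Egr pair, Egr1 was nearly even at 230 and 251 CPM, while Egr3 was low in both libraries and called lower at 11.96 and 19.0 CPM.

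Feedback genes went both ways. Ier3, a survival gene induced by NF-κB, was the most raised of all 36, at 331 against 117 CPM (2.82-fold, interval 2.68–2.97). The MAP kinase phosphatase Dusp1 (718 and 491 CPM), the NF-κB inhibitor Nfkbia (354 and 237 CPM), the RNA decay factor Zfp36 (451 and 348 CPM) and Gadd45b (93.2 and 68.9 CPM) were higher but under 1.5-fold. Called lower were Ier2 (207 and 331 CPM), Ier5 (132 and 243 CPM), the antiproliferative Btg2 (443 and 676 CPM) and the nuclear phosphatase Dusp2 (27.8 and 59.2 CPM). Myc stayed within 1.5-fold at 14.6 and 19.8 CPM.

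The nuclear receptors Nr4a1 and Nr4a3 were called in opposite directions: Nr4a1 stood at 109 and 169 CPM, and Nr4a3 at 34.9 and 20.5 CPM (1.70-fold higher, interval 1.49–1.95). Nr4a2 was at 47.0 and 60.7 CPM. Klf2, a factor of quiescent lymphocytes and of endothelium under flow, was 2.81-fold lower at 284 against 797 CPM, while Klf4 (268 and 303 CPM) and Klf6 (357 and 378 CPM) were close. Among the chaperones the HSP110 gene Hsph1 was 2.86-fold lower at 13.6 against 38.8 CPM, and Dnaja1 2.02-fold lower at 139 against 280 CPM. Hspa1a was called lower at 8.12 and 14.6 CPM. The constitutive Hspa8 (1227 and 1684 CPM) and Hsp90ab1 (1006 and 1305 CPM), the most abundant of the family, together with Hspe1 (203 and 278 CPM), Hspd1 (105 and 123 CPM), Dnajb1 (32.3 and 42.4 CPM), the inducible Hsp90aa1 (313 and 324 CPM) and Hspa1b (9.54 and 11.6 CPM) differed by less than 1.5-fold. When each cell was weighted the same in place of each UMI, 10 genes were called higher, where 20.25% of all genes were, and 7 lower, where 19.07% were. Under that weighting Egr3 was called higher, at a log2 ratio of 0.80 in place of -0.40, and Ier2, Btg2 and Nr4a1 changed direction without a call, to 0.094, 0.24 and 0.28.

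**Figure D1:**
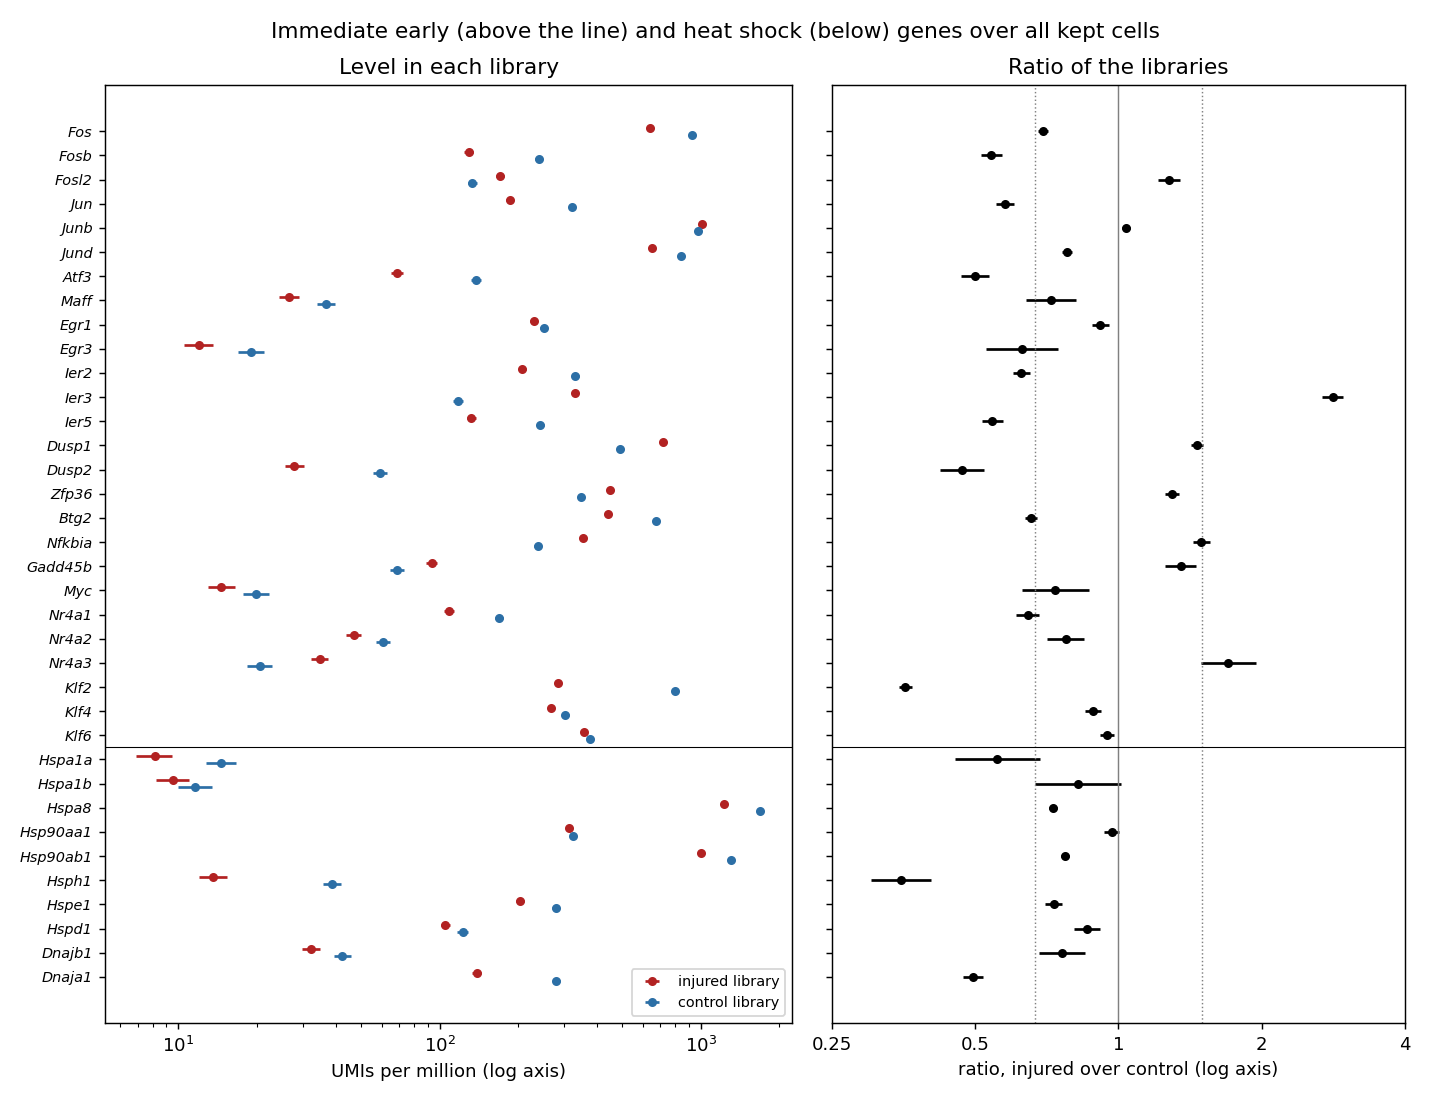
Level of each of the 36 genes in the injured and the control library, in CPM on a log axis (left), and the ratio of injured over control (right), with 95% counting intervals as bars. Ier3 lies farthest to the right at 2.82, and Klf2 and Hsph1 farthest to the left at 0.356 and 0.350.

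The 2 families were distributed differently over the cell classes. Among classes of at least 50 cells, neutrophils carried the most immediate early RNA, 35657 injured and 44057 control CPM, and the least heat shock RNA, 1082 and 1199 CPM. Secretory cells had the least immediate early RNA among them, at 1055 and 409 CPM. In the control library fibroblasts (15615 CPM), cDC2 (14604 CPM), endothelial cells (13196 CPM), classical monocytes (12337 CPM) and nonclassical monocytes (10918 CPM) followed the neutrophils, whereas B cells (6921 CPM), NK cells (6562 CPM), alveolar macrophages (6211 CPM) and T cells or ILC2 (6146 CPM) had less. Within this order alveolar macrophages (6149–6273 CPM) and T cells or ILC2 (6034–6259 CPM) did not differ beyond counting error, nor did NK cells (6308–6823 CPM) and B cells (6792–7052 CPM). Heat shock RNA in the control library was highest in NK cells (4936 CPM, interval 4716–5163), which cDC2 at 4796 CPM matched within counting error, and in the injured library in alveolar epithelial cells (4645 CPM).

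**Figure D2:**
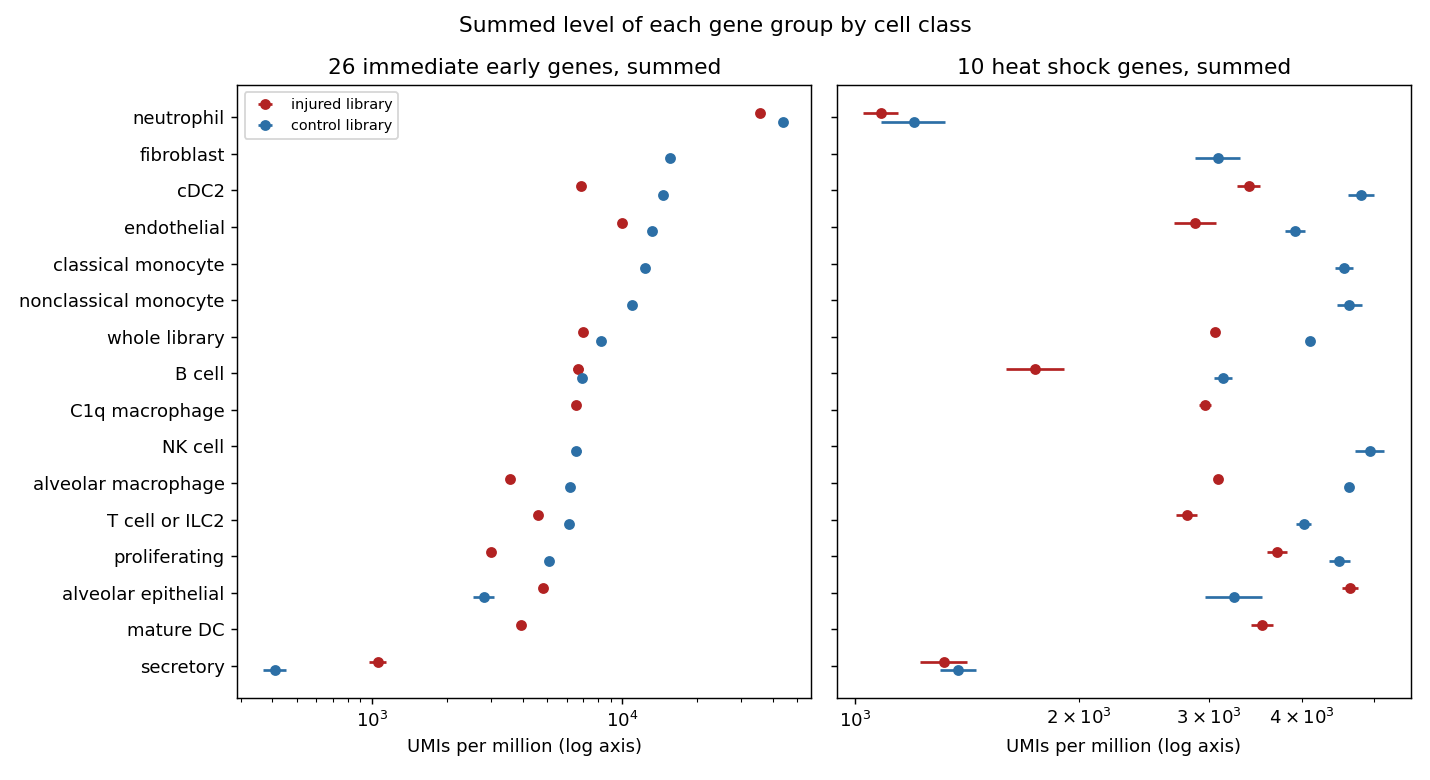
Summed CPM of the 26 immediate early genes (left) and of the 10 heat shock genes (right) in each cell class, on log axes, by library, with 95% counting intervals. Neutrophils lie far to the right at 35657 and 44057 CPM for immediate early genes and at the left for heat shock genes, at 1082 and 1199 CPM.

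Single genes departed from that order. Neutrophils had the highest level for 19 of the 36 genes in the injured library, whose 11 classes of at least 50 cells were ranked, and for 13 in the control library, with 13 such classes. Fos reached 3338 CPM in injured and 6742 CPM in control neutrophils, 73.4 and 559 times its level in the class where it was lowest. Jun peaked elsewhere, in endothelial cells, at 1006 and 1762 CPM, and in the control library fibroblasts at 1690 CPM did not differ from them beyond counting error. Klf4 also peaked in endothelial cells (1150 and 993 CPM). Nr4a3 reached 441 CPM in mature dendritic cells of the injured library, and Nr4a1 reached 877 CPM in nonclassical monocytes of the control library. Myc was highest in B cells of both libraries (131 and 42.4 CPM), in the control library without differing from proliferating cells (31.6 CPM) beyond counting error. Atf3 and Egr3 peaked in cDC2 of the control library at 632 and 116 CPM, and Klf2 in control B cells at 2008 CPM. Of the chaperones, Dnaja1 (680 CPM), Hsph1 (107 CPM), Hspd1 (206 CPM) and Hsp90aa1 (633 CPM) were highest in NK cells of the control library, where the intervals of Hsph1, Hspd1 and Hsp90aa1 overlapped those of the next class.

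**Figure D3:**
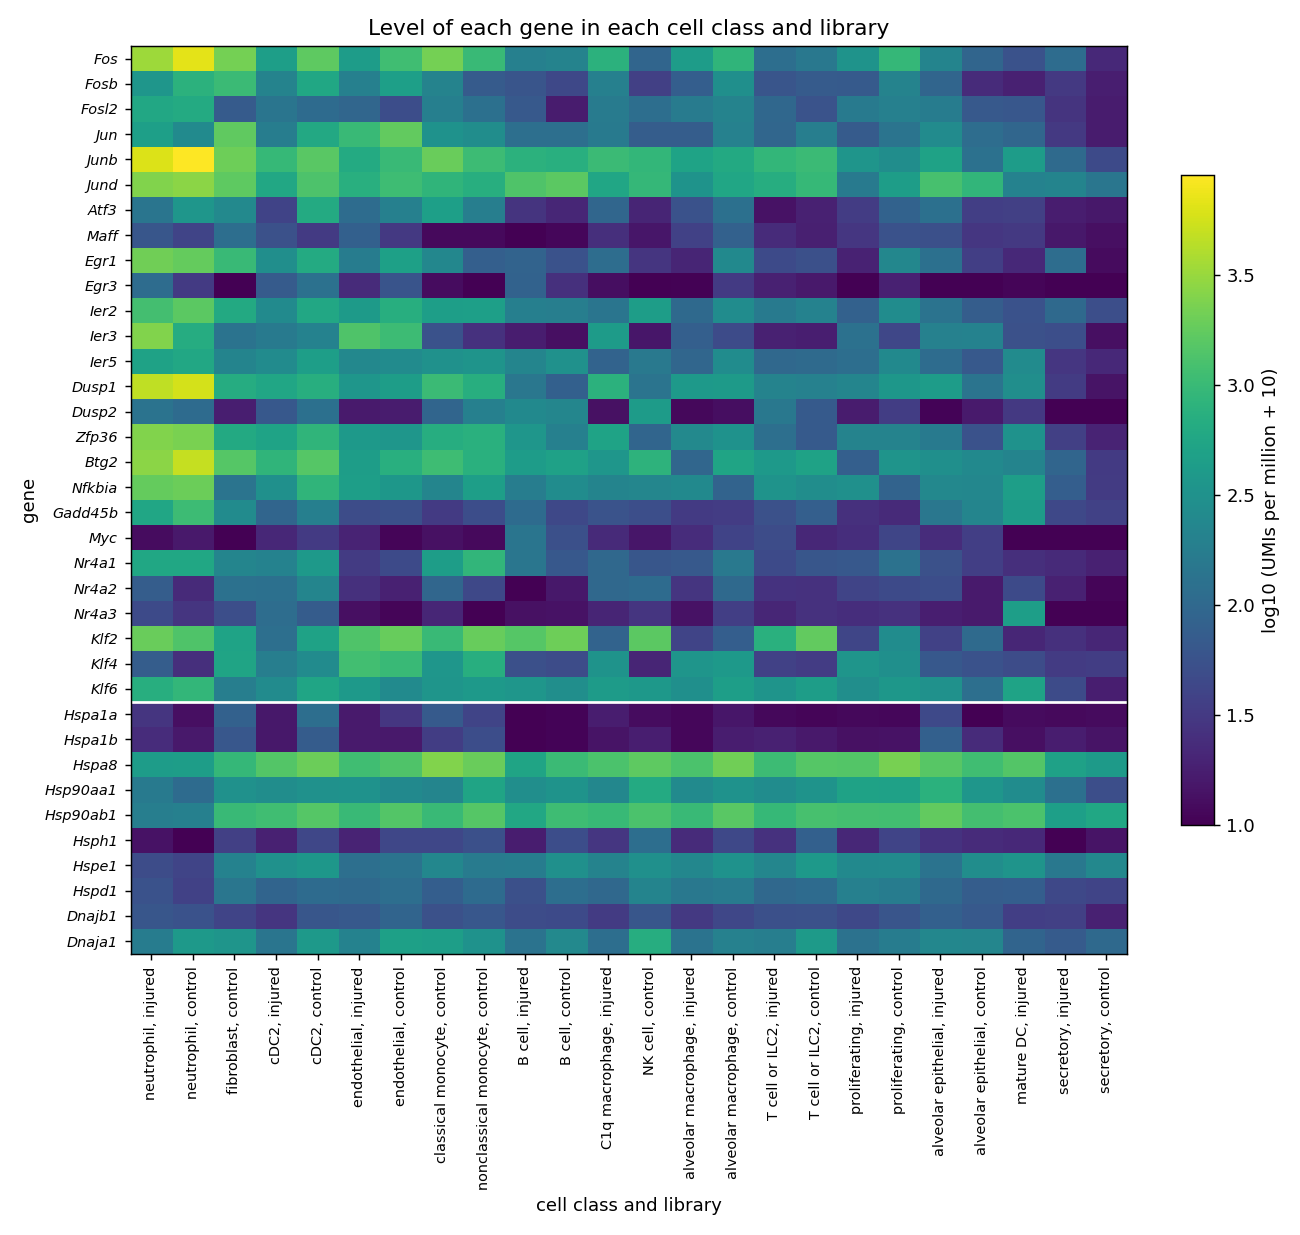
Level of each gene in each cell class and library with at least 50 cells, as log10 of CPM plus 10, with immediate early genes above the white line and heat shock genes below. The neutrophil columns are bright for most immediate early genes, such as Fos at 3338 and 6742 CPM, and dark for Hsp90ab1 at 173 and 183 CPM.

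Alveolar macrophages of the injured library had less RNA of most early transcription factors and more of Nfkbia and Ier3. Of 34 genes tested in this class 23 were called lower, where 18.6% of 9461 genes were, and 2 higher, where 11.8% were. Egr1 stood at 10.4 CPM over 441 injured and 242 CPM over 431 control cells, 23.4-fold lower (interval 18.4–30.1, from 71 and 1495 counts). Egr3 was at 0.438 and 21.9 CPM, from only 3 injured counts (ratio 0.0200, interval 0.00408–0.0598). Also lower were Btg2 (84.3 and 518 CPM, 6.14-fold), Nr4a3 (3.94 and 25.8 CPM), Nr4a2 (18.8 and 92.4 CPM), Fosb (66.5 and 285 CPM), Ier5 (83.7 and 266 CPM) and Fos (423 and 856 CPM, 2.02-fold). Nfkbia ran the other way at 241 against 77.3 CPM (3.11-fold higher, interval 2.81–3.45), and so did Ier3 at 68.5 against 36.8 CPM. Junb (507 and 608.1 CPM), Dusp1 (373 and 401 CPM), Klf4 (335 and 374 CPM) and Gadd45b (22.1 and 23.3 CPM) kept within 1.5-fold. Of 9 heat shock genes 6 were called lower, among them Hspa8 (1315 and 2022 CPM), Hsp90ab1 (997 and 1554 CPM) and Hsph1 (12.9 and 33.9 CPM), and the lists' medians were -1.001 for early and -0.57 for heat shock genes, beside -0.07 over all genes. With a size factor 2 heat shock and 16 immediate early genes were called lower, where 14.25% of all genes were.

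The share of macrophages with a UMI went the same way once every cell was thinned to 1000 UMIs: 2.09% of injured and 16.6% of control cells for Egr1 (7.48% and 32.3% unthinned), 7.33% and 35.6% for Btg2, and 19.9% and 5.61% for Nfkbia. Of secretory cells thinned alike, 0 of 63 injured and 0 of 112 control cells had a UMI of Egr1, which allows shares of up to 5.69% and 3.24% by the exact binomial interval; this bounds cells with a UMI at that depth, not cells that express the gene. The macrophages of each library lay in different clusters, 342 injured cells in cluster 4 and 323 control cells in cluster 5, so the library and the cluster cannot be told apart there. Cluster 9, which held 98 injured and 107 control cells of low depth (medians of 931.5 and 992 UMIs), gave summed immediate early levels of 1946 and 3557 CPM. Within it Egr1 was at 7.69 and 74.9 CPM, from 1 and 13 counts, and Fos at 154 and 478 CPM. Mitochondrial shares differed between the libraries in this class, with medians of 6.56% in injured and 4.03% in control cells; their part in the result was not tested.

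Proliferating cells, 52 injured and 50 control, had lower Egr1, Klf2 and Btg2 levels in the injured library and higher Nfkbia and Ier3 levels, the 2 genes that were also the ones called higher in alveolar macrophages. There 15 of 28 genes were called lower, where 19.6% of 5587 genes were, and 2 higher, where 15.5% were. Egr1 was at 9.42 and 223 CPM (23.6-fold lower, from 11 and 176 counts), Klf2 at 31.7 and 266 CPM (8.38-fold lower) and Btg2 at 69.4 and 330 CPM (4.76-fold lower). Nfkbia (293 and 77.1 CPM, 3.80-fold) and Ier3 (117 and 32.9 CPM, 3.57-fold) were the 2 called higher, and Junb came next at 334 and 273 CPM, under 1.5-fold. Of the 7 heat shock genes tested, Hspa8 (1442 and 2222 CPM) and Dnajb1 (33.4 and 50.6 CPM) were called lower. The median of the 7 was -0.05, close to -0.03 over all genes. With a size factor 0 of the 7 were called lower, where 17.9% of all genes were. After division genes, the class with most raised markers in these cells was alveolar macrophage, with 4. Whether these were largely dividing macrophages, and whether the same lineages were dividing in both libraries, was not tested.

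In cDC2, 6 of the 8 AP-1 genes were called lower in the injured library. Of 32 genes tested 21 were called lower, where 11.1% of 3848 genes were, and 2 higher, where 17.7% were. Atf3 was at 28.9 CPM over 87 injured and 632 CPM over 65 control cells (21.9-fold lower, interval 14.7–34.0), Hspa1a at 5.56 and 106 CPM (19.1-fold lower, from 5 and 53 counts) and Klf2 at 109 and 498 CPM (4.57-fold lower). Fos (448 and 1652 CPM), Jun (170 and 596 CPM), Nfkbia (296 and 858 CPM) and Dnaja1 (132 and 380 CPM) were lower as well. Maff (43.3 and 22.0 CPM) and Nr4a3 (104 and 62.0 CPM) were called higher, Maff from 39 and 11 counts, and Fosl2 (132 and 98.0 CPM) was next. Thinned to 1000 UMIs, 2.703% of injured and 40.7% of control cells had a UMI of Atf3, and 0.909% and 0.658% of T cells or ILC2 did. Median depth was 7151 UMIs in injured and 3216 in control cDC2. Leaving out the cell with most UMIs of the 36 genes in each library left 1 gene called higher, where 18.15% of all genes were. Markers of cDC1 were raised in this class as well, and the part of the mix of cDC1 and cDC2 in these values was not tested.

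Endothelial cells had lower levels of 6 of 7 AP-1 genes tested and of both Egr genes in the injured library, and Klf2 and Klf4 stayed within 1.5-fold. Of 27 genes tested 11 were called lower, where 16.7% of 4600 genes were, and 2 higher, where 16.2% were. Egr1 was at 163 CPM over 93 injured and 464 CPM over 392 control cells (2.84-fold lower, interval 2.13–3.87), Egr3 at 12.8 and 48.2 CPM from 4 and 49 counts, and Fos at 423 and 1114 CPM. Dnaja1 at 192 and 471 CPM was the 1 heat shock gene of 7 called lower. Fosl2 (83.3 and 40.3 CPM) and Klf6 (388 and 252 CPM) were called higher, and Ier3 (1390 and 1043 CPM) was the next. Klf2 was at 1374 and 1832 CPM and Klf4 at 1150 and 993 CPM. The injured counts came from few cells, with 79.3% of the Fosb counts and 83.9% of the Atf3 counts in 3 cells each. The median share of a cell's UMIs in early genes ran against the sums, at 0.607% in injured and 0.520% in control cells. With each library clustered alone 4 genes were called lower, and Atf3 and Btg2 changed direction to log2 ratios of 0.20 and 0.15. The share over all genes was not computed for that clustering.

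The 2 endothelial clusters did not behave alike. Cluster 3, led by Prx and Kdr, had summed early levels of 9676 and 10317 CPM, and cluster 12, of deeper cells, 10326 and 15208 CPM. Ier3 stood at 1500 and 517 CPM in cluster 3 and at 1283 and 1411 CPM in cluster 12. Egr1 stood at 162 and 270 CPM in cluster 3 and at 164 and 600 CPM in cluster 12, where Ier2 was at 373 and 863 CPM. Dnaja1 was lower in both, at 149 and 474 CPM in cluster 3 and 234 and 470 CPM in cluster 12.

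Neutrophils of the injured library had less early RNA in sum over the class, and single early genes went both ways. Of 32 genes tested 9 were called higher, where 47.9% of 3969 genes were, and 6 lower, where 10.3% were; the median over all genes was 0.47, so most genes of this class leaned towards the injured library. With a size factor, which centres the genes, 26.2% of genes were higher and 24.5% lower, and of the 36 genes 4 were higher and 15 lower. Ier3 was at 2437 CPM over 587 injured and 665 CPM over 121 control cells (3.66-fold higher, interval 3.19–4.22), Egr3 at 101 and 21.4 CPM, and Nr4a2 at 64.4 and 12.2 CPM from 79 and 4 counts. Atf3 (132 and 351 CPM, 2.66-fold), Dnaja1 (162 and 378 CPM, 2.33-fold) and Fosb (344 and 775 CPM, 2.25-fold) were lowest, followed by Fos at 3338 and 6742 CPM. Egr1 (2055 and 1810 CPM), Zfp36 (2486 and 2271 CPM) and Nfkbia (1783 and 1932 CPM) were close. After thinning, 68.1% of injured and 95.5% of control neutrophils had a UMI of Fos, and 62.2% and 33.6% had 1 of Ier3, against 3.45% and 0.319% of B cells for Ier3.

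Most injured neutrophils, 427 of 587, lay in cluster 0, which held 4 control cells, and the others shared cluster 7 with 117 control cells. In the shared cluster summed early RNA was higher in the injured library, at 49076 against 43094 CPM, whereas cluster 0 had 29543 CPM. Fos was at 2132 CPM in cluster 0 and at 5984 injured and 6720 control CPM in cluster 7. Ier3 was at 3112 CPM in cluster 0 and at 956 and 640 CPM in cluster 7. Klf2 (3529 and 1351 CPM), Jund (4367 and 2514 CPM), Dusp1 (8451 and 5678 CPM) and Zfp36 (3458 and 2259 CPM) were higher in the injured cells of cluster 7, and Dnaja1 was lower at 161 and 392 CPM. The share of cells in cluster 0 differed along with the levels of Fos and Ier3 over the class, and its part in them was not tested.

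In T cells or ILC2 of the injured library Klf2 and several chaperones were lower. Of 29 genes tested 6 were called lower, where 4.58% of 6332 genes were, and 4 higher, where 35.4% were; with a size factor the shares of all genes were 14.4% lower and 16.2% higher, and 16 of the 36 genes were lower and 2 higher. Hsph1 was at 16.1 CPM over 220 injured and 70.9 CPM over 309 control cells (4.39-fold lower), Klf2 at 741 and 1730 CPM (2.33-fold lower, interval 2.17–2.51) and Dnaja1 at 175 and 401 CPM (2.29-fold lower). Hspe1 (215 and 384 CPM) and Jun (85.6 and 172 CPM) were also called lower. Myc at 38.7 and 11.3 CPM (3.44-fold), Dusp2 at 144 and 58.0 CPM (2.48-fold) and Zfp36 at 111 and 58.5 CPM (1.90-fold) were highest. Thinned, 37.3% of injured and 72.4% of control cells had a UMI of Klf2, and 14.5% and 35.9% had 1 of Dnaja1.

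The clusters of this class held different shares of each library, with 68 injured and 223 control cells in cluster 6, led by the naive T cell genes Lef1 and Dapl1, and 124 and 84 in cluster 8, led by Cxcr6, Icos and Gata3. In cluster 8 summed early RNA was 4558 injured and 8888 control CPM, and Junb was at 890 and 2080 CPM, Dusp1 at 177 and 441 CPM and Egr1 at 38.6 and 150 CPM. In cluster 6 the sums were 4760 and 5165 CPM and Junb was at 792 and 633 CPM. Klf2 was at 1594 and 1972 CPM in cluster 6 and at 505 and 1030 CPM in cluster 8. Heat shock RNA was lower in both, at 2457 and 3860 CPM in cluster 6 and 2612 and 4363 CPM in cluster 8. The remaining cluster of the class, cluster 22, was led by Ctla4, Ikzf2 and Foxp3 and held 28 injured and 2 control cells. Its injured cells had summed levels of 4605 CPM for early, 356 CPM for Klf and 3781 CPM for heat shock genes. The part of the mix of clusters in the class values was not tested.

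In B cells the heat shock genes were lower in the injured library and several early genes higher. Of 8 heat shock genes tested 6 were called lower and 0 higher, and of 19 immediate early genes 6 were called higher and 1 lower; in this class 16.7% of 4392 genes were lower and 16.2% higher. Hsph1 was at 7.07 CPM over 58 injured and 39.9 CPM over 316 control cells, from 2 and 63 counts (ratio 0.177, interval 0.0210–0.668). Hspd1 (42.4 and 106 CPM), Hspa8 (516 and 1010 CPM), Hsp90ab1 (583 and 1091 CPM), Dnaja1 (124 and 235 CPM) and Hspe1 (162 and 291 CPM) were lower. Myc at 131 and 42.4 CPM (3.08-fold, interval 2.01–4.67), Gadd45b at 98.9 and 33.5 CPM and Nr4a1 at 134 and 54.4 CPM were the 3 with the highest ratios. Klf2, abundant here, was at 1480 and 2008 CPM. When the 3 cells with most UMIs of each gene were left out of each library, 3 genes were called higher and 11 lower, beside 6.79% and 38.0% of all genes treated alike, and Gadd45b, with 82.1% of its 28 injured counts in 3 cells, went to a log2 ratio of -0.23.

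**Figure D4:**
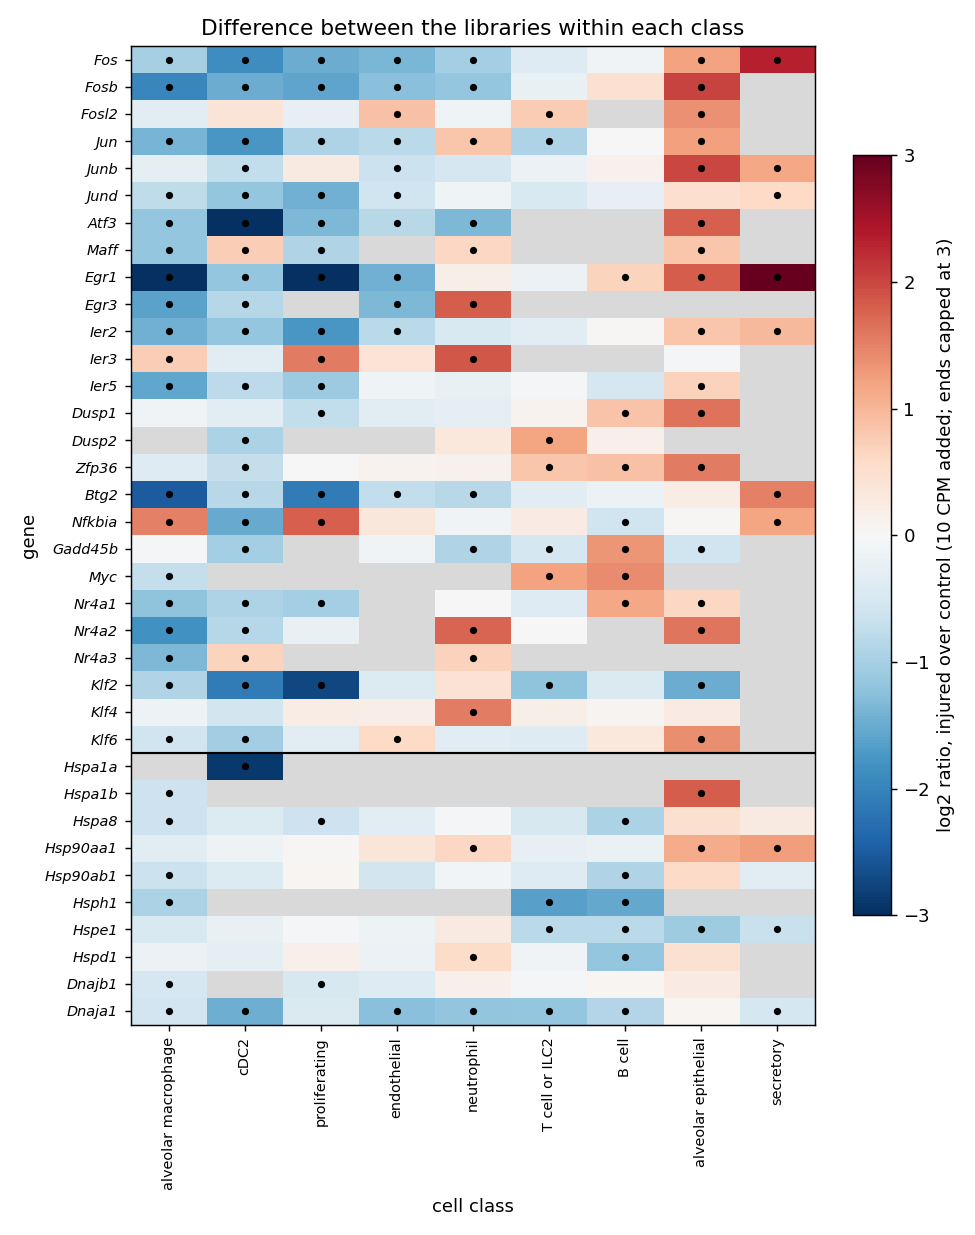
Log2 ratio of injured over control for each gene (rows) in each of the 9 compared classes (columns), with 10 CPM added, colours capped at 3 and dots on genes called at 1.5-fold; blank fields had fewer than 50 counts. The alveolar macrophage and cDC2 columns are mostly on the lower side, with Egr1 at -3.63 and Atf3 at -4.04, and the alveolar epithelial column mostly on the higher side.

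In alveolar epithelial cells summed early RNA was higher in the injured library over the class, while the sums within its 2 clusters lay closer. Of 30 genes tested 17 were called higher, close to the 54.0% of 4723 genes that were, and 3 lower, where 11.8% were. With a size factor 12 of the 30 were higher and 6 lower, and 30.5% and 28.4% of all genes. Fosb was at 83.0 CPM over 102 injured and 12.8 CPM over 85 control cells, from 108 and 2 counts, of which 51 lay in 1 cell (ratio 6.49, interval 1.75–54.3). Junb was at 492 and 115 CPM (4.27-fold higher, interval 2.68–7.26) and Hspa1b at 69.9 and 12.8 CPM from 91 and 2 counts. Klf2 (27.7 and 95.9 CPM), Hspe1 (124 and 269 CPM) and Gadd45b (137 and 211 CPM) were called lower, and without the 3 cells with most of its UMIs Gadd45b turned, to a log2 ratio of 1.17. Cluster 16, led by the alveolar type 1 gene Ager, held 83 injured and 20 control cells at median depths of 13402 and 993 UMIs, and cluster 20, led by Sftpc, 19 and 65 cells. Summed early levels were 4942 and 4575 CPM in cluster 16 and 1721 and 1647 CPM in cluster 20, beside 4839 and 2801 CPM over the class. The AP-1 genes alone still differed within cluster 16, at 2658 CPM (2568–2749) in injured and 1671 CPM (1364–2027) in control cells. In cluster 20 they ran the other way at 789 and 1045 CPM, without differing beyond counting error. The mix of clusters differed between the libraries, and its part in the class values was not tested. Heat shock sums were 4636 and 4948 CPM in cluster 16 and 4924 and 2122 CPM in cluster 20.

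In secretory cells the highest ratio of any class was seen, and it came from 1 cell. Of 12 genes tested 8 were called higher, where 30.6% of 1340 genes were, and 2 lower, where 9.78% were. Egr1 was at 102 CPM over 79 injured and 2.19 CPM over 115 control cells, from 58 and 2 counts (ratio 46.7, interval 12.4–395), Fos at 101 and 12.1 CPM from 57 and 11 counts, and Btg2 at 81.3 and 21.9 CPM. A single injured cell of 70820 UMIs, against a class median of 2415, held 57 of the 58 Egr1 counts, 50 of the 57 Fos counts and 291 of the 597 immediate early counts of the class. That cell carried 18552 UMIs of Scgb1a1. Without the cell with most UMIs of the 36 genes in each library 3 genes were called higher, where 23.0% of all genes were, Ier2 turned to a log2 ratio of -0.23, and the median of the early genes went from 1.19 to 0.53. Leaving out the 3 cells with most of each gene took 7 of the 10 calls away, with 27.3% of all genes then higher and 14.5% lower, and Hsp90aa1 (113 and 41.7 CPM), Hspe1 (143 and 232 CPM) and Dnaja1 (60.1 and 91.0 CPM) were still called, while Hsp90ab1 (456 and 568 CPM) had not been called. The marker genes of the class took 52.8% of injured and 60.3% of control UMIs there, and without them in the total the summed heat shock levels were 2794 and 3464 CPM.

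**Figure D5:**
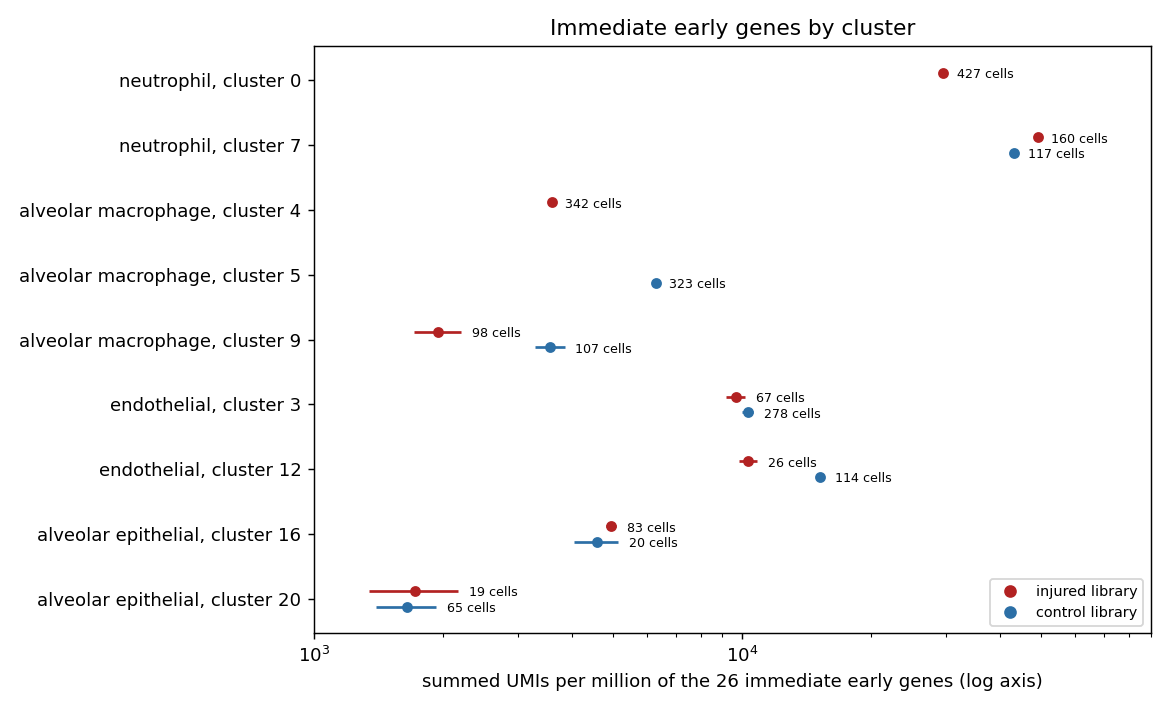
Summed CPM of the 26 immediate early genes in the clusters of classes that split between the libraries, on a log axis, with 95% counting intervals and the number of cells. In neutrophil cluster 7 the injured point (49076 CPM) lies to the right of the control point (43094 CPM), while cluster 0 lies farther left at 29543 CPM.

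Across the 9 classes 12 of the 36 genes were called in 1 direction only, 8 of the 10 heat shock and 4 of the 26 immediate early genes, some of them in a single class. The same share over all genes was not computed. A gene called in few classes has less room to be called both ways, and Hspa1a was tested in only 1 class, so these counts do not compare the families. Dnaja1, a J-domain helper of HSP70, was called lower in 7 of 9 classes and higher in 0, the exceptions being alveolar epithelial (225 and 217 CPM) and proliferating cells (119 and 164 CPM). Klf2 was called lower in 5 of 8 classes tested and higher in 0, and Hspe1 lower in 4 of 9 and higher in 0. Hsph1 was called lower in all 3 classes tested, Hspa8 lower in 3 of 9 and higher in 0, and Dnajb1 lower in 2 of 7 and higher in 0. Ier3 was called higher in 3 of 6 classes tested and lower in 0, and Fosl2 higher in 3 of 7 and lower in 0. Hsp90aa1, the inducible HSP90 gene, was called higher in 3 of 9 and lower in 0, while its partner Hsp90ab1 was called lower in 2 of 9 and higher in 0. Fos was called lower in 5 and higher in 2 of 9, Egr1 lower in 4 and higher in 3 of 9, and Btg2 lower in 5 and higher in 1 of 9; of these, the secretory calls rest on the cells named above.

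Cells of 1 class varied widely in early RNA. Neutrophils gave a median of 3.01% of their UMIs to the 26 immediate early genes in the injured library (quartiles 1.55% and 5.10%) and 4.17% in the control library (3.38% and 5.36%). In control cDC2 the median was 0.829% (0.296% and 1.83%) and in injured cDC2 0.365% (0.244% and 0.637%). Correlations of gene pairs were taken on logged counts of cells with at least 1000 UMIs, each thinned to 1000. Across 234 such control endothelial cells Fos and Junb had a Pearson correlation of 0.68 and Fos and Jun of 0.43. The median there over 120 pairs of early genes was 0.28. In 51 control fibroblasts Junb and Btg2 reached 0.81, and Fos and Jun 0.69. In 543 injured neutrophils Fos and Jun had -0.04 and Fos and Dusp1 0.59. Those neutrophils came from clusters 0 and 7, whose Fos levels differed, and correlations within a cluster were not computed. Pairs of an early and a heat shock gene had medians of -0.0035 in control endothelial cells and -0.09 in control fibroblasts. Pairs within the heat shock genes were about as weak there, with medians of -0.0081 and 0.036, so these values do not set the families apart. Cells of a library share their handling and depth, and in control endothelial cells the early share had a Spearman correlation of 0.373 with UMIs per cell and -0.425 with the mitochondrial share. Barcodes over the mitochondrial limit, left out elsewhere, had early sums of 3610 and 3278 CPM, under the 7002 and 8200 CPM of the kept cells.

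Further genes of the same pathways did not follow the members as a block. Of 46 other immediate early genes tested in the whole library 8 were called higher and 7 lower, beside 19.2% and 14.1% of all genes, with a median of 0.03; the glucocorticoid target Klf9 (131 and 50.7 CPM) and the clock gene Per1 (63.5 and 33.2 CPM) were higher, and the phosphatase gene Dusp10 (7.47 and 23.1 CPM) and Egr2 (50.5 and 95.6 CPM) were lower. Of 33 other chaperone genes 5 were higher and 3 lower. Hmox1, the haem oxygenase, stood out at 434 and 58.5 CPM (7.42-fold higher) and the small heat shock gene Hspb1 at 105 and 46.6 CPM, while Chordc1 (24.8 and 54.1 CPM) and the HSP90 helper Fkbp4 (51.0 and 85.1 CPM) were lower. Among 18 upstream factors Hsf2 was called higher (17.6 and 8.99 CPM) and Hsf1 lower (14.5 and 23.6 CPM). In alveolar macrophages 15 of 41 other immediate early genes were called lower, where 18.6% of all genes were, and 4 higher, where 11.8% were. In B cells 10 of 24 other chaperones were called lower, where 16.7% were, and 1 higher, where 16.2% were. Over 24 levels from 15 classes, the genes whose pattern was most like the mean of the AP-1 and Egr genes were Gm26532 (Pearson 0.91), Myadm (0.86), Ndel1 (0.84), Coq10b (0.84) and Csrnp1 (0.82). Most like the heat shock genes were Zranb2 (0.88), the chaperonin subunit genes Cct7 (0.88) and Cct5 (0.82), the HSP70 and HSP90 adaptor Stip1 (0.83) and Chordc1 (0.82).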

How the data were processed

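Single-cell 3′ libraries (10x, version 3 chemistry) of 2 groups were analysed from the deposited matrices, which hold whole-number UMI counts per gene and barcode made with Cell Ranger 4.0.0 per the file headers. The submitters' processing notes also name STAR 2.7.2c, featureCounts 1.6.3, DESeq2 1.26.0 and 1.28.1 and the builds GRCm38 and mm10, with no role given for these libraries. Of 2702 injured and 2674 control barcodes (22314603 and 17207816 UMIs), those with at least 500 UMIs, 200 genes and at most 15% mitochondrial UMIs were kept (2346 and 2342), and 44 of each were removed as doublets, scored against simulated pairs (40 neighbours, top 0.8% per 1000 cells). The libraries shared 1 barcode.

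Counts were scaled to 10000 per cell and logged; 2000 variable genes without the 36 genes gave 30 principal components, a shared-neighbour graph (20 neighbours) and Leiden clusters (resolution 1, seed 1). Clusters were named from marker lists by a scoring rule written after the data were seen. Counts were summed per class and library; a gene at 0 was bounded at 3 counts. Intervals are exact Poisson, conditional or binomial at 95%, and thinning to 1000 UMIs left out 275 and 334 cells. Only the ratio, call and ratio interval steps were tested on simulated counts, for the whole library, alveolar macrophages and cDC2. Those counts held counting error alone, so neither the cell steps nor counts gathered in few cells were tested. The 36 genes and the lists were chosen with earlier results of these data known; all 36 are named for the whole library, and per class the 3 highest and 3 lowest ratios, with further genes, the motifs and the promoters shown chosen after values were seen. Alternatives were other filters, clusterings, scalings, minimum counts, folds and pseudocounts; 3 were added after the data were seen (totals without class markers, leaving out 1 cell, leaving out 3 cells per gene). Tools were Python 3.11.15, numpy 2.4.6, scipy 1.17.1, pandas 2.3.3, scikit-learn 1.9.0, python-igraph 0.11.9 and leidenalg 0.10.2.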

Additional observations from a re-analysis of the deposited data

Results flagged for a closer look

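With 1 library per group none of the following differences between classes was tested. They are the gene list and the genes whose log2 ratios of injured over control ran far in opposite directions in 2 classes, past 1.5-fold for the list and past a log2 ratio of 1.5 either way for single genes, a size chosen after the values were seen. The median of the immediate early genes was 1.19 in secretory cells and -1.001 in alveolar macrophages. In secretory cells Fos had a log2 ratio of 2.33, Egr1 of 3.21 and Btg2 of 1.52. Without the 3 cells that held most UMIs of each gene these were -0.40, 0 and 0.31, and 1 injured cell carried 57 of the 58 Egr1 counts. Against them stood Fos at -1.86 in cDC2, and Egr1 at -3.63 and Btg2 at -2.49 in alveolar macrophages.

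In alveolar epithelial cells Fosb was at 2.03 and Atf3 at 1.79, where the control library held 2 and 4 counts, beside -1.95 for Fosb in alveolar macrophages and -4.04 for Atf3 in cDC2. In neutrophils Egr3 was at 1.82 and Nr4a2 at 1.74, from 7 and 4 control counts, beside -1.61 and -1.83 in alveolar macrophages. Nfkbia was at 1.797 in proliferating cells and -1.51 in cDC2; without the 3 cells with most of its UMIs in each library it was called in the same direction in both classes.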

How the results depend on the processing

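No paired analysis was possible because each group had 1 library. With no test and no replicate spread, a count is taken as moved when it changed by over 1.5 times, and a median when it crossed the 1.5-fold size (0.58 on the log2 scale). Of 696 recomputed counts and medians 624 did not move, and of 596 recomputed counts of one family within a class 98 moved. Of 4695 recomputed ratios of single genes 15 reversed. The next counts leave the 2-fold size aside, and for each gene also settings in which it had too few counts or its class was not compared. Calls that held under every remaining setting were 7 of 15 in the whole library, 9 of 13 in B cells and 6 of 10 in T cells or ILC2. They were 12 of 20 in alveolar epithelial cells, 20 of 25 in alveolar macrophages, 20 of 23 in cDC2 and 6 of 13 in endothelial cells. In neutrophils they were 7 of 15, in proliferating cells 14 of 17 and in secretory cells 1 of 10. Where a value below moved, the cause was not tested, apart from settings that test fewer or more genes or leave out named cells.

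In the whole library the genes called higher were 4 with a mitochondrial limit of 10%, all 4 immediate early. They were 10 with each cell weighted the same (20.25%), all 10 immediate early, and 1 at 2-fold (10.3%). Those called lower were 7 (19.07%) and 4 (7.03%) under the last 2 settings, of which immediate early 3 and 2. With equal weights Egr3 reversed to 0.80, called higher, and Ier2, Btg2 and Nr4a1 to 0.094, 0.24 and 0.28.

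In B cells 1 gene was higher with a minimum of 200 counts (8.24%) and 3 at 2-fold (4.85%). Without the 3 cells with most UMIs of each gene 3 were higher (6.79%) and 11 lower (38.0%), and Gadd45b reversed to -0.23. At 2-fold 2 were lower (6.35%). In T cells or ILC2 size factors gave 2 higher (16.2%), 16 lower (14.4%) and a heat shock median of -0.79, which was -0.61 with equal weights. There 7 were higher with a minimum of 10 counts (42.6%), 2 with 200 (22.8%) and 2 at 2-fold (14.0%). With each library clustered alone 10 were lower. In alveolar epithelial cells size factors gave an early median of 0.47 and 6 lower (28.4%). The heat shock median was 0.72 with equal weights and 0.81 without 3 cells. There 8 were higher with a minimum of 200 counts (47.1%) and 1 lower with a mitochondrial limit of 25%. Gadd45b reversed there to 0.88 and 1.17 under equal weights and without 3 cells.

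In alveolar macrophages the early median was -0.54 with a pseudocount of 50 CPM. The heat shock median was -0.63 with equal weights and -0.62 with a pseudocount of 1 CPM, and 1 gene was higher at 2-fold (5.25%). In cDC2 the heat shock median was -0.59 with libraries clustered alone and -0.76 with a minimum of 10 counts. There 1 gene was higher with a mitochondrial limit of 25% and with libraries clustered alone. Without the cell with most UMIs of the 36 genes 1 was higher (18.15%). With a minimum of 200 counts 0 were higher (10.1%), and at 2-fold 0 (7.1%). In endothelial cells the early median was -0.75 with a mitochondrial limit of 10%, -0.61 with a minimum of 200 counts and -0.63 without 3 cells. Genes higher there were 1 with a mitochondrial limit of 10%, 4 with libraries clustered alone and 5 with equal weights (18.9%). They were 4 with a minimum of 10 counts (21.6%), 1 with 200 (12.5%) and 1 at 2-fold (5.80%). Those lower were 4 with libraries clustered alone, where Atf3 and Btg2 reversed to 0.20 and 0.15, and 5 at 2-fold (6.5%). In neutrophils size factors gave an early median of -0.65, with 4 higher (26.15%) and 15 lower (24.5%). Libraries clustered alone gave a heat shock median of -0.76. Neutrophil genes higher were 3 with a minimum of 200 counts (35.4%) and 4 at 2-fold (30.3%). In proliferating cells 1 was higher (17.35%) and 9 lower (13.7%) with a minimum of 200 counts, and Maff reversed to 0.37 with equal weights.

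In secretory cells the early median was 0.53 and the heat shock median -0.62 without the cell with most UMIs of the 36 genes, and 0 and -0.70 without 3 cells. The genes higher were 5 with equal weights (34.4%), 17 of 26 tested with a minimum of 10 counts (49.5%) and 1 with 200 (21.2%). They were 3 without the 1 cell (23.0%) and 1 without 3 (27.3%). Those lower were 1 with totals without the 36 and the mitochondrial genes and 1 with a minimum of 200 counts (9.61%). At 2-fold 0 were lower (3.66%), and without 3 cells 4 (14.5%). Fos reversed to -0.40 without 3 cells, Ier2 to -0.23 without the 1 cell and -0.20 without 3, and Nfkbia to -0.28 with equal weights and -0.11 without 3. In secretory, alveolar epithelial and B cells several of the levels named rest on fewer than 10 counts. Leaving out 3 cells per gene moved all genes too, to medians of -0.30 in B cells, 1.503 in alveolar epithelial and -0.23 in endothelial cells from -0.02, 0.59 and 0.00167. Size factors gave 2 heat shock genes lower (14.25%) in place of 6 in alveolar macrophages and 0 (17.9%) in place of 2 in proliferating cells.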
